A study of Mus musculus with 12 samples.

Results

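Acbd4 and 7 further genes of mouse chromosome 11, Smarce1, Ccdc88a, Tmem98, Mmd, Baiap2, Spns3 and Mrnip, were followed across 12 kidney proximal tubule arrays. They were chosen because earlier values of these arrays differed between catalase-transgenic mice and mice without the transgene, with or without the dB/dB genotype. Every probe set whose array annotation gave the single symbol of a member was used, which made 19 of the 45037 probe sets on the array that were not controls. These were 8 of 18193 genes named on the array. A probe set was tested where at least 3 of the 12 arrays read more than 4 on the log2 scale, which left 12 of the 19, with all 8 genes among them, and 18144 probe sets in all, of which 1329 belonged to other genes of chromosome 11. Tested probe sets of a gene are called brighter or dimmer by their mean over the arrays. Because the transgene contrasts chose the members, their values in those contrasts and in the interaction are given as a description, and only the dB/dB contrasts were tested for them.

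Total RNA came from proximal tubules isolated by Percoll centrifugation from kidneys of mice aged 20 weeks on a normal diet, and each sample was hybridised to 1 Affymetrix array. The 4 groups of 3 samples were dB/dB mice carrying the catalase transgene (dB/dB catalase-Tg), dB/dB mice without it (dB/dB), catalase-transgenic mice without the dB/dB genotype (catalase-Tg), and wild-type mice. The dB/dB genotype is a loss of the long leptin receptor that gives obesity and diabetes. From work on these mice rather than from the labels, the transgene is rat catalase, the enzyme that breaks down hydrogen peroxide in peroxisomes, under a Kap promoter that is active in proximal tubules. Its insertion site is not given in the sources used here. The labels do not say that the samples of a group came from separate animals, so the spread between samples may be technical.

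The members have varied roles. Acbd4 encodes an acyl-CoA binding protein of the peroxisomal membrane that, in human cells, tethers peroxisomes to the endoplasmic reticulum (ER) through VAPB. Smarce1 encodes BAF57, a subunit of the BAF chromatin remodelling complex. Ccdc88a encodes girdin, an actin-binding protein that modulates inhibitory G proteins, and Baiap2 encodes IRSp53, an adaptor that links Rac1 and Cdc42 to actin at curved membranes. Tmem98 encodes a membrane protein that binds the transcription factor Myrf, Mmd encodes a Golgi protein of the PAQR family, Spns3 encodes a member of the spinster family of transporters, and Mrnip is known in human cells as a partner of the MRE11-RAD50-NBS1 (MRN) complex that senses DNA breaks.

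The RefSeq promoter table (GRCm38.p6) held 5 of the 8 members, Baiap2, Ccdc88a, Mmd, Mrnip and Tmem98. Acbd4, Smarce1 and Spns3 are named only. Shown here are a member that was higher and a member that was lower with the transgene, as the windows of 300 bases around their start sites on the plus strand, at chr11:119942842-119943141 for Baiap2 and chr11:90249226-90249525 for Mmd. Capitals mark each match to GGGCGG on either strand, which reads CCGCCC on the other strand, and to TATAAA on either strand.
Baiap2: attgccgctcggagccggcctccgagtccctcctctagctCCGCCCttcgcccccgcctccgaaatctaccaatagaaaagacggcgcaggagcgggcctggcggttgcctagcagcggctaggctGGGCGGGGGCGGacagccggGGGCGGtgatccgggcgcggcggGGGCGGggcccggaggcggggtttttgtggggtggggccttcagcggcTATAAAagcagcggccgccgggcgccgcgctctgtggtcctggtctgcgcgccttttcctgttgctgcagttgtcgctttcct
Mmd: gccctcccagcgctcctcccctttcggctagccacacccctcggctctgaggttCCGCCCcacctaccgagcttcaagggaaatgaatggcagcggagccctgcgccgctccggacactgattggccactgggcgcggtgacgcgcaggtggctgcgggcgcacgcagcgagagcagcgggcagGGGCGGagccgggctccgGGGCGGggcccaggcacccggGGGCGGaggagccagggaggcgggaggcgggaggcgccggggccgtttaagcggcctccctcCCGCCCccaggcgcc
The Baiap2 window held 5 GGGCGG matches and 1 TATAAA match, and the Mmd window held 5 GGGCGG matches and 0 TATAAA matches, with overlapping matches of a motif counted separately. Ccdc88a, Mrnip and Tmem98 held 3 GGGCGG matches each and 0 TATAAA matches. Of the 32851 promoters in the table, 35.7% held GGGCGG and 13.6% held TATAAA. GC content was 70.3% for Baiap2, 75.7% for Mmd, 75.3% for Ccdc88a, 74.3% for Tmem98 and 60.7% for Mrnip, above the median of 52.7% over all promoters. The matches describe these letters only. The GGGCGG matches were in the windows of members that were higher and of members that were lower.

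Arrays within groups were uneven. The 3 arrays with the lowest limma array weights were dB/dB catalase-Tg 1 at 0.172, catalase-Tg 1 at 0.287 and wild type 1 at 0.227, against 0.629 to 3.03 for the other 9 arrays. Xist, expressed from the inactive X chromosome, read 11.91 on wild type 2 and 6.72 on wild type 3 (log2, its brightest probe set), and at most 2.67 on the other 10 arrays. Eif2s3y, a gene of the Y chromosome, read 2.30 on wild type 2, 7.89 on wild type 3 and 7.88 to 8.93 on the remaining arrays (its brightest probe set). The labels give no sex. Proximal tubule markers were high on every array (mean log2 level of 15 of 16 listed genes on the array, 12.03 to 13.04 in dB/dB catalase-Tg, 11.83 to 12.11 in dB/dB, 11.94 to 12.95 in catalase-Tg and 10.32 to 12.79 in wild type). Other cell types were present too. The mean level of 12 endothelial markers was 4.85 to 7.52 in dB/dB catalase-Tg, 6.88 to 7.86 in dB/dB, 4.21 to 5.92 in catalase-Tg and 4.57 to 7.59 in wild type, and that of 6 podocyte markers on the array was 4.85 to 7.85, 7.50 to 9.78, 4.25 to 5.12 and 4.52 to 9.60 in the same groups. The mean of 8 loop of Henle and distal tubule markers was 11.41 to 12.19 in dB/dB catalase-Tg, 12.25 to 12.72 in dB/dB, 8.76 to 9.67 in catalase-Tg and 9.50 to 12.86 in wild type. Wild type 1 and dB/dB catalase-Tg 1 had the highest mean of their group in each of these 3 lists. They also had the lowest proximal tubule mean of their group, at 10.32 and 12.03. Catalase-Tg 1 was highest in its group for endothelial markers (5.92) and lowest for podocyte markers (4.25). Fibroblast and mural markers, 8 on the array and 5 above the filter, had a mean of 3.70 to 6.54 in dB/dB catalase-Tg, 5.23 to 6.06 in dB/dB, 3.45 to 4.70 in catalase-Tg and 3.50 to 6.16 in wild type, with Col1a1 and Col3a1 at or below 4 on every array. Of 8 collecting duct markers 4 were above the filter, with a mean of 4.10 to 4.22 in dB/dB catalase-Tg, 4.13 to 4.32 in dB/dB, 3.84 to 3.98 in catalase-Tg and 3.71 to 3.93 in wild type, and Aqp2, Scnn1g and Avpr2 lay at or below 4 on every array. Of 7 leukocyte markers 3 were above it, with a mean of 3.32 to 4.25, 3.59 to 4.45, 3.31 to 4.17 and 3.22 to 4.16 in the same groups, and Cd68, Adgre1, Cd3e and Itgam lay at or below 4 on every array. The endogenous Cat gene gave no check of the transgene, since its probe sets showed no clear difference between transgenic and other arrays. On average the brighter differed by 0.20 (SE 0.34, adjusted p = 0.776, limma) and the dimmer by 0.56 (SE 0.40, adjusted p = 0.471, limma). Kap itself was uneven within groups (its brightest probe set). It read 8.46, 15.26 and 15.22 in catalase-Tg and 8.63, 11.70 and 15.23 in wild type. With the dB/dB genotype it read 13.04, 15.29 and 14.62 in dB/dB catalase-Tg and 13.59, 12.79 and 13.70 in dB/dB. Whether transgene expression was uneven too was not tested.

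Acbd4 was the member with the clearest split between transgenic and other arrays. Its brighter probe set read 9.38, 9.70 and 9.73 (log2) in dB/dB catalase-Tg, 8.11, 8.32 and 8.31 in dB/dB, 10.19, 10.02 and 9.98 in catalase-Tg, and 8.43, 8.97 and 9.09 in wild type. All 6 transgenic arrays lay above all 6 others, with the lowest transgenic array, at 9.38, next to the highest other, at 9.09. The transgene difference was 1.36 (SE 0.20), or 2.56-fold, in the dB/dB state and 1.23 (SE 0.20), or 2.35-fold, without it. In tubule RNA made of several cell types, more cells of a type and more RNA per cell cannot be told apart.

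The dimmer Acbd4 probe set read 5.91, 7.65 and 7.52 in dB/dB catalase-Tg, 5.36, 4.29 and 5.32 in dB/dB, 7.71, 7.96 and 7.92 in catalase-Tg, and 4.72, 6.69 and 6.83 in wild type. Transgenic arrays lay above the others within each dB/dB state, but dB/dB catalase-Tg 1, at 5.91, lay below wild type 2 and 3. The differences were 2.04 (SE 0.60) in the dB/dB state and 1.78 (SE 0.60) without it. Both Acbd4 probe sets were higher with the transgene, and over the 12 arrays, which fall into the 4 groups, their values had a Pearson r of 0.916, given as a description.

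**Figure D1:**
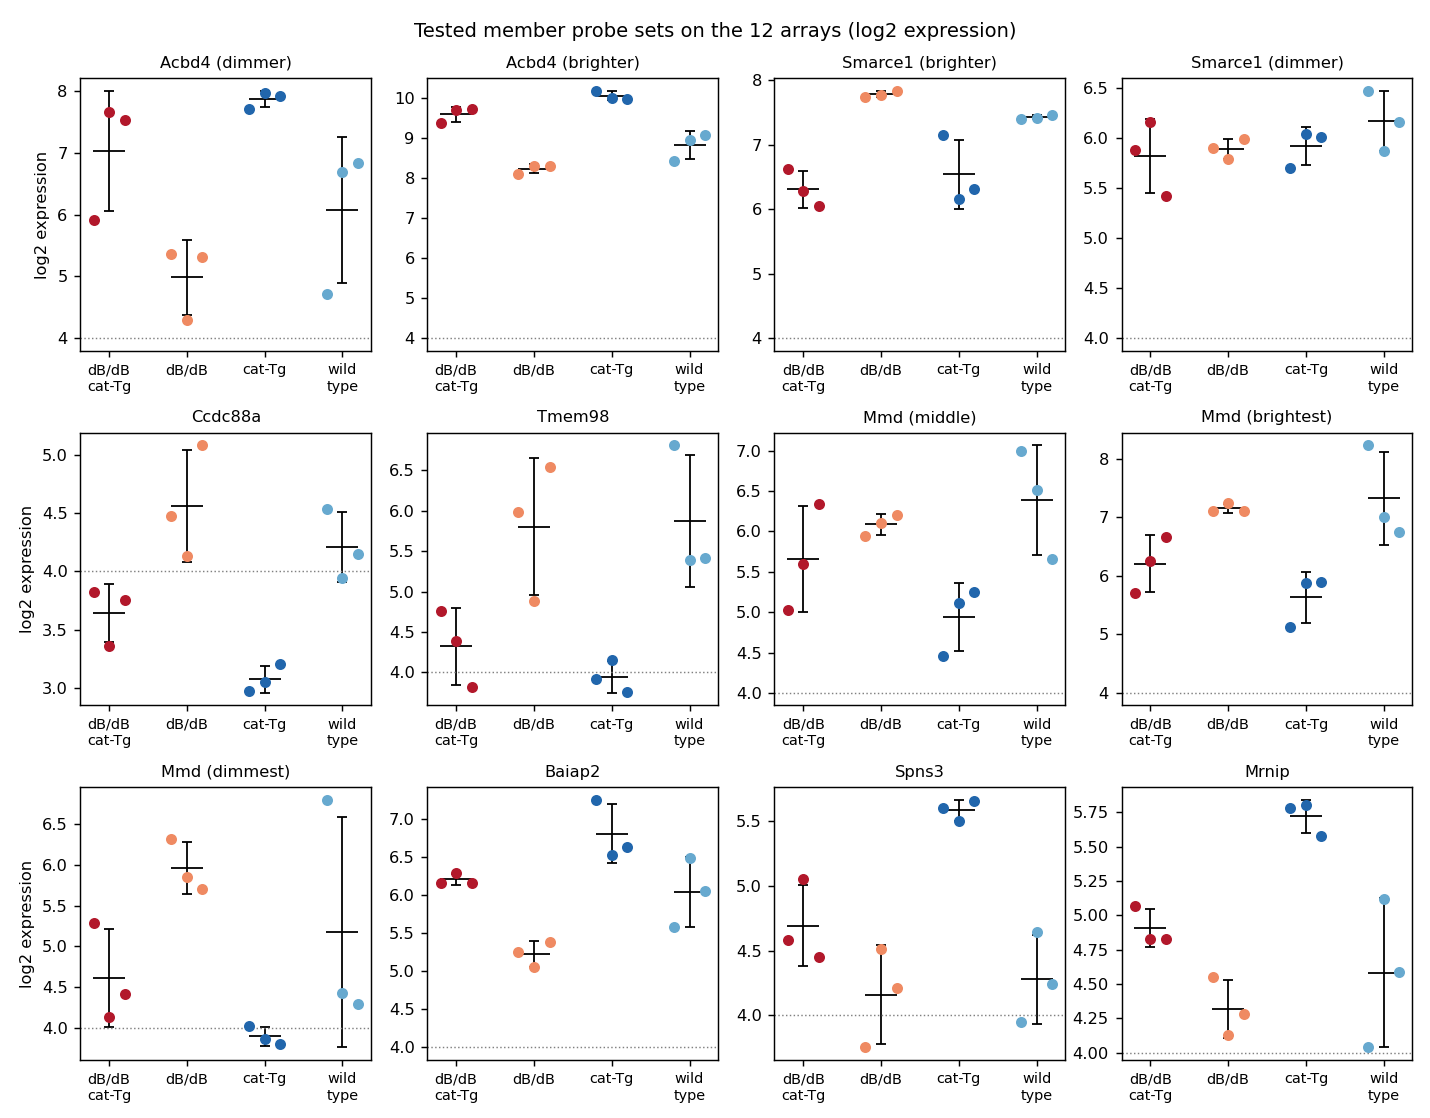
Log2 expression of the 12 tested member probe sets on each array (points) with group mean and SD (bars), in dB/dB catalase-Tg, dB/dB, catalase-Tg and wild type, with a dotted line at the filter of 4. The brighter Acbd4 probe set lies at 9.38 to 10.19 on the transgenic arrays and 8.11 to 9.09 on the others.

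Smarce1 differed between its probe sets. The brighter read 6.62, 6.28 and 6.05 in dB/dB catalase-Tg, 7.75, 7.77 and 7.84 in dB/dB, 7.16, 6.16 and 6.32 in catalase-Tg, and 7.40, 7.42 and 7.46 in wild type. The 6 transgenic arrays lay below the 6 others, with catalase-Tg 1, at 7.16, the nearest to them. The difference was -1.47 (SE 0.25) in the dB/dB state and -0.88 (SE 0.25) without it. The dimmer averaged 5.82 ± 0.38 in dB/dB catalase-Tg, 5.90 ± 0.10 in dB/dB, 5.92 ± 0.19 in catalase-Tg and 6.17 ± 0.30 in wild type (SD, n = 3 each), and its groups overlapped. Its differences were -0.07 (SE 0.23) in the dB/dB state and -0.25 (SE 0.23) without it, and its r with the brighter probe set over the 12 arrays was 0.185. A further Smarce1 probe set lay between 2.30 and 2.52 on every array and was not tested, so the groups were apart in 1 of 3 probe sets of this gene.

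Ccdc88a, the girdin gene, was dim. Its tested probe set read 3.82, 3.36 and 3.75 in dB/dB catalase-Tg, 4.47, 4.13 and 5.08 in dB/dB, 2.97, 3.05 and 3.20 in catalase-Tg, and 4.53, 3.94 and 4.15 in wild type. The 6 transgenic arrays, at 2.97 to 3.82, lay below the 6 others and below the filter of 4, so its differences of -0.92 (SE 0.26) in the dB/dB state and -1.13 (SE 0.26) without it set dim values against values near the filter. Its other probe sets lay between 2.30 and 3.54 and were not tested.

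Baiap2, which encodes IRSp53, had 1 tested probe set of 4. That probe set read 6.16, 6.29 and 6.16 in dB/dB catalase-Tg, 5.25, 5.05 and 5.38 in dB/dB, 7.25, 6.53 and 6.63 in catalase-Tg, and 5.58, 6.49 and 6.05 in wild type. It lay higher with the transgene within each dB/dB state, by 0.98 (SE 0.26) in the dB/dB state and by 0.77 (SE 0.26) without it. Catalase-Tg 2, at 6.53, lay just above wild type 2, at 6.49, and the dB/dB catalase-Tg arrays lay within the wild-type range, so the 6 transgenic and 6 other arrays overlapped. The remaining Baiap2 probe sets lay between 2.33 and 4.29.

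Tmem98, the gene of the Myrf partner, had 1 probe set. It read 4.76, 4.39 and 3.82 in dB/dB catalase-Tg, 5.99, 4.88 and 6.54 in dB/dB, 3.92, 4.15 and 3.76 in catalase-Tg, and 6.81, 5.39 and 5.42 in wild type. All 6 transgenic arrays lay below the 6 others, but dB/dB catalase-Tg 1, at 4.76, and dB/dB 2, at 4.88, were close. The differences were -1.48 (SE 0.48), or 2.79-fold lower, in the dB/dB state and -1.93 (SE 0.48), or 3.81-fold lower, without it.

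Mmd, the PAQR family gene, was measured by 3 probe sets that all lay lower on average with the transgene. The brightest read 5.70, 6.26 and 6.66 in dB/dB catalase-Tg, 7.11, 7.24 and 7.11 in dB/dB, 5.13, 5.87 and 5.89 in catalase-Tg, and 8.23, 7.00 and 6.74 in wild type. The 6 transgenic arrays lay below the 6 others, with dB/dB catalase-Tg 3, at 6.66, close to wild type 3, at 6.74. The differences were -0.95 (SE 0.39) in the dB/dB state and -1.69 (SE 0.39) without it.

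The middle Mmd probe set averaged 5.66 ± 0.65 in dB/dB catalase-Tg, 6.09 ± 0.13 in dB/dB, 4.94 ± 0.42 in catalase-Tg and 6.39 ± 0.67 in wild type (SD, n = 3 each). In the dB/dB state its groups overlapped, with a difference of -0.43 (SE 0.39), and without it the groups were apart, at -1.45 (SE 0.39). The dimmest averaged 4.61 ± 0.60 in dB/dB catalase-Tg, 5.96 ± 0.32 in dB/dB, 3.90 ± 0.12 in catalase-Tg and 5.17 ± 1.41 in wild type (SD, n = 3 each). Its groups were apart in each dB/dB state, at -1.35 (SE 0.58) with the dB/dB genotype and -1.27 (SE 0.58) without it. Over the 12 arrays the 3 Mmd probe sets had r of 0.944, 0.601 and 0.754 by pairs.

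Spns3, the spinster family gene, read 4.58, 5.05 and 4.45 in dB/dB catalase-Tg, 3.75, 4.51 and 4.21 in dB/dB, 5.60, 5.50 and 5.66 in catalase-Tg, and 3.95, 4.64 and 4.24 in wild type, on its only probe set. The catalase-Tg arrays were the highest of the 12, while dB/dB catalase-Tg 3, at 4.45, lay below dB/dB 2, at 4.51. The difference was 0.54 (SE 0.25) in the dB/dB state and 1.31 (SE 0.25) without it.

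Mrnip, the gene of the MRN partner, read 5.07, 4.83 and 4.83 in dB/dB catalase-Tg, 4.55, 4.13 and 4.28 in dB/dB, 5.78, 5.80 and 5.58 in catalase-Tg, and 4.04, 5.12 and 4.59 in wild type, on its tested probe set. The groups were apart within each dB/dB state, and wild type 2, at 5.12, lay above the dB/dB catalase-Tg arrays. The difference was 0.59 (SE 0.25) in the dB/dB state and 1.13 (SE 0.25) without it. A second Mrnip probe set lay between 2.34 and 3.25 and was not tested.

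**Figure D2:**
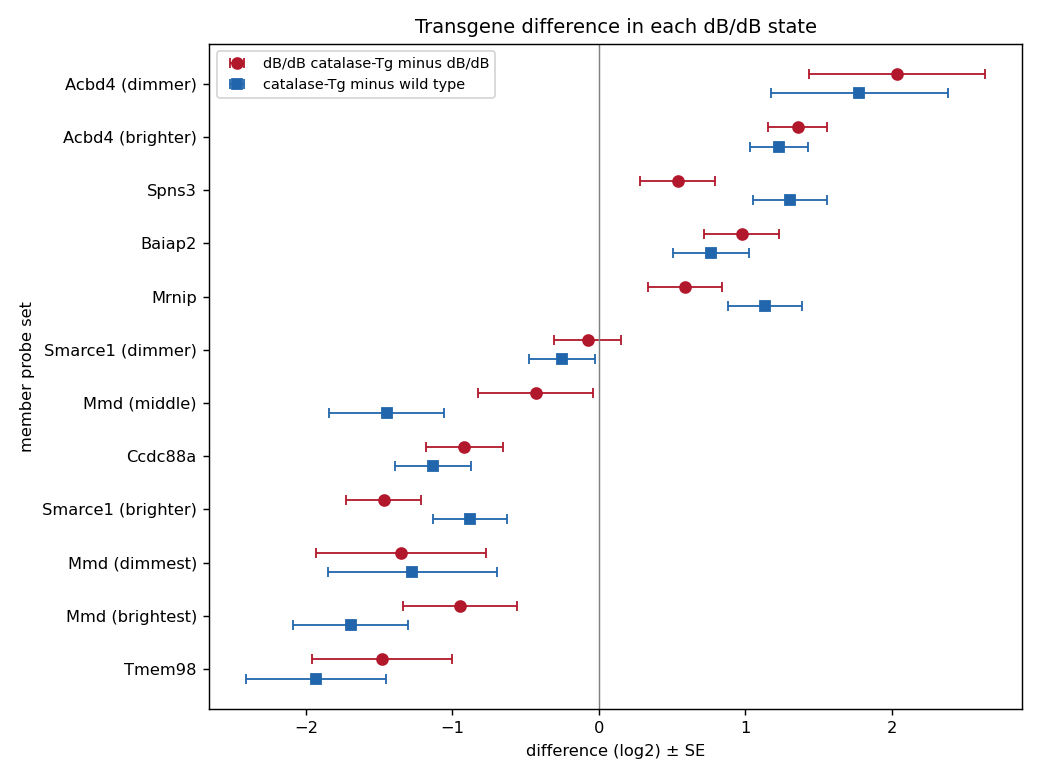
Transgene difference (log2) with its SE for the 12 tested member probe sets, as dB/dB catalase-Tg minus dB/dB (circles) and catalase-Tg minus wild type (squares). Signs match between the states for all 12, and the dimmer Smarce1 probe set lies nearest 0 at -0.07 and -0.25.

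By count, 5 of the 12 tested member probe sets had no overlap between the 6 transgenic and the 6 other arrays, where 0.783% of all probe sets tested had none. The brighter Acbd4 probe set was the 1 that was higher, where 0.127% of all were, and the 4 that were lower, where 0.656% of all were, belonged to Smarce1, Ccdc88a, Tmem98 and Mmd. Within each dB/dB state and in the same direction, 9 of 12 were apart, against 3.16% of all. In the dB/dB state alone 9 of 12 were apart, against 16.0% of all, and without it 11 of 12, against 13.5%. The 3 that overlapped in the dB/dB state were the dimmer of Smarce1, the middle of Mmd and that of Spns3. These counts follow from how the members were chosen. Without the 3 arrays of lowest weight, 6 of 12 had no overlap over all remaining arrays, against 8.58% of all, and without wild type 2 and 3, 9 of 12, against 10.1%.

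For the members' average transgene difference, taken over both dB/dB states, the median size was 1.10, against 0.236 over all probe sets tested. That gap follows from how the members were chosen, and member calls in this contrast are given as a description. By limma, 5 of 18144 probe sets (0.0276%) passed an adjusted p of 0.05 there, of which the brighter Acbd4 probe set was the 1 member. Its call was lost on leaving out any 1 of 8 of the 12 arrays. These were dB/dB catalase-Tg 2 or 3, dB/dB 1, 2 or 3, and catalase-Tg 1, 2 or 3. Without wild type 2, 9 of 12 member probe sets passed, where 5.34% of all did. In the single states 4 probe sets (0.0220%) passed without the dB/dB genotype and 1 (0.00551%) with it, none of them a member, and the members' choice on these contrasts means that nothing is read from these counts. The interaction, the transgene difference with the dB/dB genotype minus that without it, lay between -0.77 (Spns3) and 1.02 (the middle of Mmd) for the members. All 12 average differences kept their sign under every alternative tried.

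The dB/dB contrasts were not used to choose the members, and no member passed the test in them. Only the average dB/dB difference is independent of the average transgene difference in this balanced design. The dB/dB contrasts within a single transgene state share group means with the transgene contrasts, so the choice of members can shift them. Averaged over both transgene states, the brighter Acbd4 probe set differed by -0.52 (SE 0.14), Baiap2 by -0.70 (SE 0.18) and Mrnip by -0.54 (SE 0.18), each with an adjusted p of 0.372 by limma. The dimmer Acbd4 probe set differed by -0.96 (SE 0.43, adjusted p = 0.409) and Spns3 by -0.51 (SE 0.18, adjusted p = 0.383). These 5 probe sets were those that lay higher on average with the transgene.

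Of the others, Ccdc88a differed by 0.46 (SE 0.18, adjusted p = 0.395) and the dimmest Mmd probe set by 0.75 (SE 0.41, adjusted p = 0.441). Tmem98 differed by 0.16 (SE 0.34, adjusted p = 0.828) and the brighter Smarce1 probe set by 0.07 (SE 0.18, adjusted p = 0.865). In all, 6 of the 12 differences were above 0 and 6 below, with a median of -0.06, against -0.10 over all probe sets tested. By limma, 0 of 12 passed the adjusted threshold, where 0.0165% of all did. At an unadjusted p under 0.05 the count was 6 of 12, where 12.2% of all were.

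In the dB/dB mice against wild type, 0 of 12 members passed, as did 0% of all probe sets, and 2 of 12 had an unadjusted p under 0.05, where 4.16% of all had. Baiap2 differed by -0.81 (SE 0.26) and the brighter Acbd4 probe set by -0.58 (SE 0.20), both with an adjusted p of 0.767 by limma. Without the 3 arrays of lowest weight 4 of 12 passed, both Acbd4 probe sets, Baiap2 and the dimmest of Mmd, where 26.9% of all did, with an adjusted p by limma of 0.00687 for the brighter Acbd4 probe set and 0.00690 for Baiap2. Between dB/dB catalase-Tg and catalase-Tg, 0 of 12 members passed, where 0.0276% of all did, and 4 of 12 had an unadjusted p under 0.05, where 6.86% of all had. Spns3 differed by -0.89 (SE 0.25, adjusted p = 0.603) and Mrnip by -0.81 (SE 0.25, adjusted p = 0.659). With array weights these 2 passed, where 4.87% of all did.

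By position of the arrays, the 6 dB/dB-state and 6 other arrays overlapped for all 12 member probe sets, where 0.303% of all had no overlap. In dB/dB against wild type 3 of 12 had none, 1 higher (the brighter of Smarce1) and 2 lower (the brighter of Acbd4, and Baiap2), where 11.4% of all had none. In dB/dB catalase-Tg against catalase-Tg 7 of 12 had none, 2 higher and 5 lower, where 16.0% of all had none. The 5 lower were both Acbd4 probe sets, Baiap2, Spns3 and Mrnip, and the 2 higher were Ccdc88a and the dimmest of Mmd. Both comparisons share arrays with the transgene contrasts that chose the members, so nothing is read from these counts.

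The average dB/dB count of 0 held on leaving out any 1 of 11 arrays and changed without wild type 1. Without it, 5 of 12 member probe sets passed, namely both Acbd4 probe sets, Baiap2, Mrnip and the dimmest of Mmd, where 6.87% of all passed. With array weights the same 5 passed, where 10.9% of all did, and leaving out the 3 arrays of lowest weight these 5 and the brightest of Mmd passed, where 19.4% of all did. Without wild type 2 and 3, 0 members passed, and the differences of Tmem98 and of the 3 Mmd probe sets, above 0 over all arrays, were below 0. Leaving out wild type 1 or those 3 arrays leaves wild type 2 and 3, which carry Xist, as the only wild-type arrays. The part played by Xist-bearing samples and by the other cell types in these differences was not tested.

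**Figure D3:**
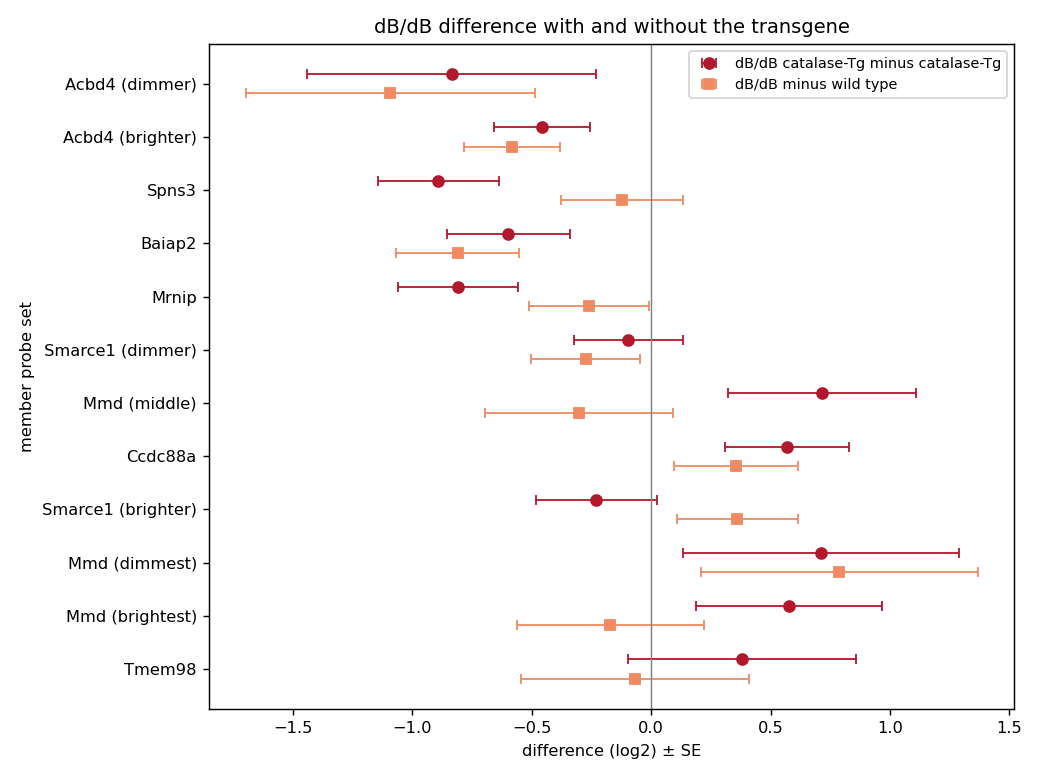
dB/dB difference (log2) with its SE for the 12 tested member probe sets, as dB/dB catalase-Tg minus catalase-Tg (circles) and dB/dB minus wild type (squares). Acbd4, Baiap2, Spns3 and Mrnip lie below 0 in both, and no member passed the test.

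The members lay across most of chromosome 11 rather than next to each other. In RefSeq gene order they ran Ccdc88a, Mrnip, Spns3, Tmem98, Mmd, Smarce1, Acbd4 and Baiap2, with 157 of the chromosome's 1609 protein-coding genes before Ccdc88a and 1541 before Baiap2. Between members, from left to right, lay 137, 398, 172 and 116 protein-coding genes as far as Mmd, and 172 between Smarce1 and Acbd4 and 231 between Acbd4 and Baiap2. Med1, which encodes a Mediator subunit and whose brightest probe set passed the average transgene test by limma at -2.07 (SE 0.15, adjusted p = 0.000801), lay between Mmd and Smarce1, with 35 protein-coding genes between it and Smarce1. That Med1 probe set read 5.54, 6.17 and 6.32 in dB/dB catalase-Tg, 8.21, 8.23 and 8.39 in dB/dB, 5.99, 6.12 and 6.32 in catalase-Tg, and 8.02, 7.98 and 8.03 in wild type. Other tested Med1 probe sets did not share this split. The next brightest differed by -0.23 (SE 0.27, adjusted p = 0.679 by limma). The remaining ones differed by -0.48 (SE 0.20, adjusted p = 0.247) and 0.07 (SE 0.11, adjusted p = 0.768).

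The nearest tested genes beside the members, each read by its brightest tested probe set, overlapped between transgenic and other arrays. Of the nearest 3 tested genes on each side of each member, 48 genes in all, 0 passed in the average transgene difference by limma, 0 had no overlap between the 6 transgenic and 6 other arrays, and 10 (20.8%) had an unadjusted p under 0.05, where 18.1% of all had. Their median difference was 0.03 and the median size 0.228, against 0.236 over all probe sets tested. The lowest was Myo1d, an unconventional myosin gene beside Tmem98, at -1.17 (SE 0.33). The highest was Hlf, a PAR bZIP transcription factor gene beside Mmd, at 0.84 (SE 0.54). Before Acbd4, Gjc1 differed by -1.14 (SE 0.55), Eftud2 by -0.31 (SE 0.14) and Nmt1 by 0.25 (SE 0.11). After it, Hexim1 differed by 0.34 (SE 0.24), Arhgap27 by 0.52 (SE 0.18) and Plekhm1 by 0.55 (SE 0.16). Among these neighbours of Acbd4 the unadjusted p by limma was 0.044 for Eftud2, 0.047 for Nmt1, 0.017 for Arhgap27 and 0.0056 for Plekhm1. Gjc1 and Hexim1 were above 0.05, and the lowest adjusted p was 0.186, for Plekhm1.

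**Figure D4:**
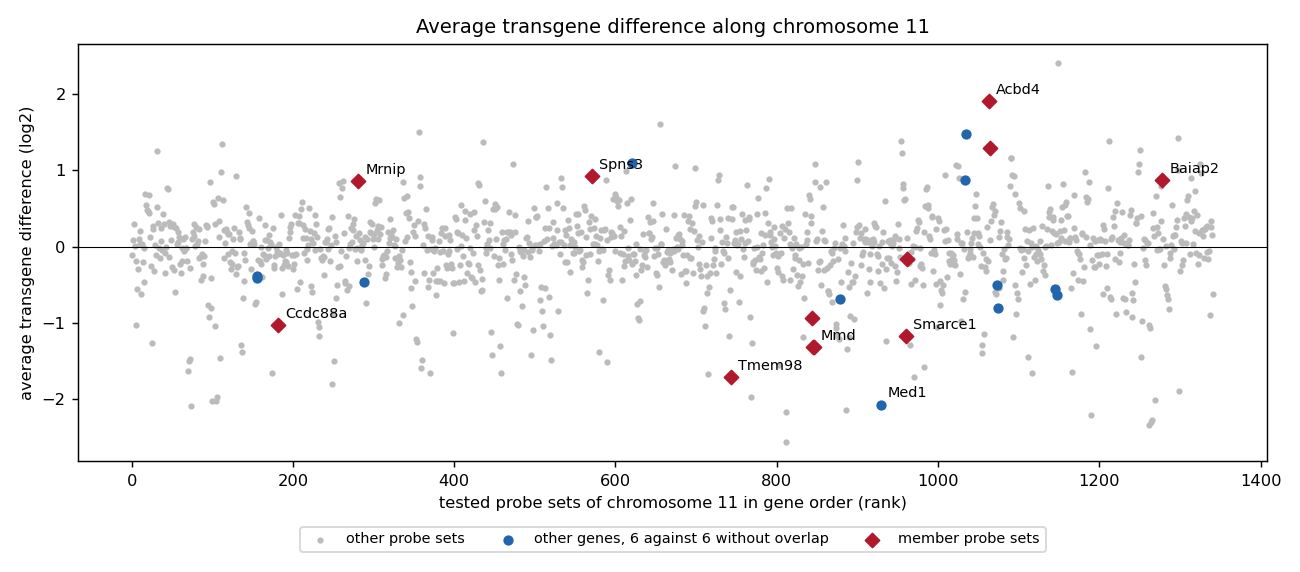
Average transgene difference (log2) of the tested probe sets of chromosome 11, in gene order (rank, not distance). Members (diamonds) stand among other probe sets at most places, and the brightest Med1 probe set is labelled at -2.07.

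Over the chromosome, 12 of the 1329 tested probe sets that were no members had no overlap between the 6 transgenic and 6 other arrays, or 0.903%, where 0.783% of all had none. That share was the sixth highest of the chromosomes. With the members it was 17 of 1341, or 1.27%, behind X at 1.79% and chromosome 1 at 1.45%, and the members were chosen on this contrast. The 12 probe sets belonged to 9 genes, Commd1, Hnrnph1, Slc43a2, Spop, Med1, Lsm12, Arf2, Helz and Prkca, of which all but Med1 are named after their values were seen. They were lower with the transgene except Slc43a2, an amino acid transporter gene, at 1.10 (SE 0.23), and Lsm12, whose probe sets were at 0.88 (SE 0.21) and 1.47 (SE 0.30). In gene order, Lsm12 lay before Acbd4 and Arf2 after it, each beyond the 3 nearest tested genes.

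**Figure D5:**
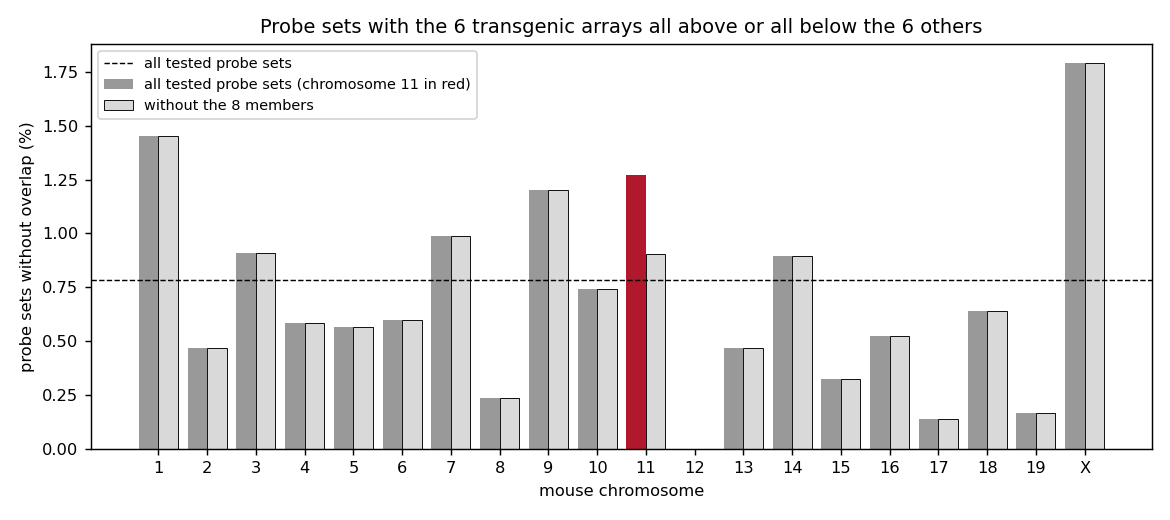
Percentage of tested probe sets per chromosome with no overlap between the 6 transgenic and 6 other arrays, with all probe sets and without the members, and a dashed line for all probe sets at 0.783%. Chromosome 11, in red, stands at 1.27% with the members and 0.903% without them.

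The 5 probe sets with the highest and the 5 with the lowest r with the brighter of Acbd4 over the 12 arrays were on other chromosomes. Chromosome 11 held 1341 of the 18144 probe sets tested, so nothing is read from these places. By Pearson r, given as a description over arrays that fall into 4 groups, the highest were Entpd2 (0.958), an ectonucleotidase gene on chromosome 2, Siah2 (0.940), a ubiquitin ligase gene on chromosome 3, Stmn1 (0.938), a microtubule regulator gene on chromosome 4, Dact2 (0.933) on chromosome 17 and Sirt3 (0.932), a mitochondrial deacetylase gene on chromosome 7. The lowest were Fam229b (-0.957), Zfp715 (-0.948), Trappc2 (-0.948), Bag4 (-0.944) and Cabcoco1 (-0.934). Of 16303 probe sets compared, 327 had r of at least 0.8 and 782 of at most -0.8. Among members, r with Acbd4 was 0.906 for Baiap2, 0.865 for Spns3 and 0.864 for Mrnip, and -0.918 for Ccdc88a, -0.869 for Tmem98, -0.827 and -0.259 for the brighter and the dimmer of Smarce1. The brightest, middle and dimmest of Mmd had -0.834, -0.694 and -0.877. The members were chosen on the transgene contrasts, so nothing is read from these r values.

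Genes of the members' own pathways were read in the same contrasts. By limma, 0 of the tested genes passed in either direction in the average transgene or the average dB/dB difference in any of the 8 lists, and 0 had no overlap between transgenic and other arrays. For the transgene, where 18.1% of all probe sets had an unadjusted p under 0.05, the counts were 0 of 6 for acyl-CoA binding and ER partners, 2 of 20 for BAF subunits, 0 of 4 for girdin and G protein partners, 1 of 3 for Tmem98 partners, 2 of 5 for the PAQR family, 0 of 7 for IRSp53 partners, 0 of 2 for the spinster family and 0 of 4 for the MRN complex. The medians of the list differences ranged from -0.12 in the BAF list to 0.29 in the spinster list, against -0.02 over all.

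Among partners of Acbd4, Vapb, its ER anchor, differed by -0.36 (SE 0.72) and Acbd3, a Golgi acyl-CoA binding protein, by -0.15 (SE 0.36) with the transgene. In the BAF list, Smarca2, an ATPase of the complex, differed by 0.33 (SE 0.22) and Bcl7b by -0.02 (SE 0.20). Myrf, the Tmem98 partner, differed by 0.76 (SE 0.32, adjusted p = 0.248 by limma) with the transgene and by -0.96 (SE 0.32, adjusted p = 0.372) with the dB/dB genotype. In the PAQR family, Paqr7 differed by 1.81 (SE 0.72) and Paqr5 by -0.93 (SE 0.33) with the transgene, and Paqr5 by 0.98 (SE 0.33) with the dB/dB genotype. None of these passed. Cdc42, the IRSp53-binding GTPase, differed by 0.20 (SE 0.11), Spns2, a sphingosine-1-phosphate transporter gene, by 0.40 (SE 0.35), and Nbn, the NBS1 gene of the MRN complex, by -0.33 (SE 0.16) with the transgene.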

How the data were processed

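Gene expression in 12 proximal tubule RNA samples was read on Affymetrix mouse arrays, 3 per group. Per the submitters' processing notes the authors made log2 values with GCRMA, which corrects the background and normalizes between arrays, and limma is also named, with no version in either case. These values lay between 2.30 and 15.66 and were used as deposited. Precision is set by the 3 arrays of a group.

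The array holds 45101 probe sets, of which 64 controls played no part. By GEO's annotation 34945 of the rest carry 1 gene symbol, 932 several and 9160 none. The RefSeq gene table of GRCm38.p6 gave chromosome and gene order. Probe sets over 4 on 3 or more arrays went into a single limma model (version 3.58.1, R 4.3.3) with a mean for each group, and p-values were adjusted by Benjamini-Hochberg over the 18144 probe sets, with 0.05 as the threshold. The model was tested on simulated data with independent noise of the same spread on every array. The real arrays were uneven and their deviations correlated, so that test does not cover these features. SE is that of the moderated test and SD that of the 3 arrays of a group.

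The members and the gene lists were chosen with earlier results of these data known. Named genes are the members with every probe set, their 3 nearest tested genes on each side, the 5 highest and 5 lowest r with Acbd4, and up to 2 genes per pathway list by smallest p in the average dB/dB difference. Other filters, normalizations, weights, probe set choices, the replicate block and arrays left out were tried as alternatives.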

Additional observations from a re-analysis of the deposited data

How the results depend on the processing

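The sign of the average transgene difference was kept in 259 of 259 member values under the alternatives tried. Of single member values, 22 in the dB/dB contrasts came newly past the threshold under an alternative, and 43 in the transgene contrasts or the interaction moved by more than the spread between arrays. The numbers of probe sets past the threshold are given next. For catalase-Tg against wild type (4) they were 14 with no filter, 31 without the 3 arrays of lowest weight (dB/dB catalase-Tg 1, catalase-Tg 1 and wild type 1), 2180 without wild type 2 and 3, and 0 with the arrays of that contrast alone, and 3 to 270 leaving out 1 array, the highest without wild type 2. With the dB/dB genotype, the transgene contrast (1) gave 3 with no filter, 6989 with array weights, 5043 without the 3 arrays, 2 with the contrast's arrays alone, and 0 to 4 leaving out 1 array. The average transgene difference (5) gave 9 with no filter, 4785 with array weights, 3711 without the 3 arrays, 3375 without wild type 2 and 3, and 2 to 969 leaving out 1 array, the highest without wild type 2. The corresponding member counts, 1 of 12 here, were 10 with array weights, 10 without the 3 arrays and 11 without wild type 2 and 3, and 0 to 9 leaving out 1 array, the highest without wild type 2. For that average difference, 26.4% of all probe sets passed with array weights, 20.5% without the 3 arrays and 5.34% without wild type 2. Without wild type 2 and 3, only wild type 1 stood for its group, so nothing is read from the counts of that setting. The brighter Acbd4 probe set lost its call on leaving out any 1 of 8 arrays.

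For dB/dB against wild type (0) the counts were 6 with no filter, 4875 without the 3 arrays (4 members) and 0 to 107 leaving out 1 array, the highest without wild type 1. For dB/dB catalase-Tg against catalase-Tg (5) they were 883 with array weights (2 members), 3 with quantile normalization, 23 without the 3 arrays, 174 without wild type 2 and 3, and 1 to 22 leaving out 1 array, the highest without wild type 1. The average dB/dB difference (3) gave 5 with no filter, 1975 with array weights (5 members), 5 with 1 probe set per gene, 3515 without the 3 arrays (6 members), 0 without wild type 2 and 3, and 0 to 1246 leaving out 1 array, the highest without wild type 1, with 0 to 5 members. The interaction (1) gave 6 with no filter, 143 without the 3 arrays, 0 without wild type 2 and 3, and 0 to 2 leaving out 1 array. The number of member probe sets without overlap (5) was 9 without wild type 2 and 3. For catalase-Tg against wild type, members past the threshold numbered 10 without wild type 2 and 3 and 1 without the 3 arrays, and in the dB/dB state 10 with array weights and 8 without the 3 arrays. Of all probe sets, 0.171% passed for catalase-Tg against wild type without the 3 arrays. In the dB/dB state 38.5% of all passed with array weights and 27.8% without the 3 arrays. The cause of these shifts in the counts was not tested.

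The samples of a group share only a number with those of other groups: 13 of 18 same-numbered pairs had a correlation of deviations above 0.1, from -0.179 to 0.705, and 6 of 12 arrays correlated best with their own number. With the replicate block the average dB/dB count was 1 and the interaction count 0, and other counts stayed within 1.5 times. Signal near the array floor of 2.30 limits Ccdc88a and the 7 untested member probe sets.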
